A study of Mus musculus with 4 samples.

Results

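The C/D box small nucleolar RNAs were followed as all transcript clusters of the array whose platform annotation gave exactly 1 gene symbol that begins with Snord and a number. The rule found 47 clusters of 44 genes among 65528 clusters on the array. Of all clusters, 30390 had 1 symbol, and these are called the named clusters here. The rule used names only and no measured value. The data were 4 arrays of mouse splenic regulatory T cells, 2 labelled KO (replicates 1 and 2) and 2 labelled WT (replicates 1 and 3). The mice labelled KO combine a FOXP3-CRE transgene, the strain named B6-Tg(Foxp3EGFP-cre)1cJbs/J, with BMI1-flox on C57BL/6. The mice labelled WT carry that transgene on C57BL/6 without the floxed allele named, so both groups have the EGFP-Cre fusion and the floxed allele is the labelled difference. Cre is driven by Foxp3, so deletion is directed to Foxp3-expressing cells. CD4 cells were taken from spleens of mice aged 7 to 8 weeks in both groups and sorted on Foxp3 GFP, which gave 15000 to 40000 cells. The titles call all 4 samples unstimulated and the treatment field calls them untreated, while the series text has 24 hours with antibodies to CD3 and CD28. Which of these applies is open. The labels do not tie samples to animals, and p-values here cover the spread among these 4 samples, which may be technical.

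Small nucleolar RNAs are short RNAs that work in the nucleolus with proteins. Those with C and D boxes bind Fbl, Nop56, Nop58 and Snu13, and most of them pair with ribosomal RNA to place a methyl group on the ribose of a chosen base. A few, among them U3, U8 (Snord118), U13 (Snord13) and U14 (Snord14), are known for the processing or for another modification of ribosomal RNA. In mammals most C/D box RNAs are cut out of introns of host genes, many of which encode ribosomal proteins or proteins of translation, while U3, U8 and U13 are transcribed from genes of their own.

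The arrays were close to each other in scale, with medians of 4.65 to 4.72 on the log2 scale of the deposited values. Regulatory T cell markers were high on all arrays. Il2ra, the CD25 chain of the interleukin-2 receptor, had 15.01 and 14.99 in the arrays labelled KO, against 14.97 and 15 in the arrays labelled WT. Within that list Lrrc32 had 11.18 and 10.48 in the arrays labelled KO, against 12.05 and 12.28 in the arrays labelled WT, while Gpr83 had 12.51 and 12.74 in those labelled KO, against 11.88 and 11.07 in those labelled WT. Neither passed, although the groups did not overlap for either. All 9 measured markers of that list lay above the array median, and Foxp3 had no cluster of its own. Bmi1, the targeted gene, had 9.58 and 9.91 in the arrays labelled KO, against 8.98 and 8.98 in the arrays labelled WT. That is the opposite of the genotype label, by 0.77 (SE 0.16, adjusted p 0.292 in limma). The exons covered by the Bmi1 cluster are not given, and if they lie outside the deleted region the value is no check of the label. Directions below therefore rest on the labels alone. In such bulk samples, fewer cells of a type and less RNA per cell cannot be told apart.

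Because most members lie in introns, the sequences at the start of host genes are the regulatory sequence they share with their host. Windows of 100 bases before to 30 after the annotated start, from RefSeq on GRCm38.p6, are shown for 3 hosts whose members are compared below. Rps13, which encodes a ribosomal protein and holds Snord14a, has its window at chr7:116334161-116334290 on the minus strand. The noncoding gene 2410006H16Rik, which holds both Snord49a and Snord49b, has its window at chr11:62602777-62602906 on the plus strand. Nop58, which encodes a core C/D box protein and holds Snord70 and Snord11, has its window at chr1:59684906-59685035 on the plus strand. Capitals mark the motifs found in a search of both strands.
Rps13: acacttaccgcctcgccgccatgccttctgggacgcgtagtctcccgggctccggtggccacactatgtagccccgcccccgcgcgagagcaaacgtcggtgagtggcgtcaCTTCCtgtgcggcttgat
2410006H16Rik: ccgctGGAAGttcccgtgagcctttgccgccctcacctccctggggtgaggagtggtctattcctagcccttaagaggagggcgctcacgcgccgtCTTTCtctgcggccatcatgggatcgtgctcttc
Nop58: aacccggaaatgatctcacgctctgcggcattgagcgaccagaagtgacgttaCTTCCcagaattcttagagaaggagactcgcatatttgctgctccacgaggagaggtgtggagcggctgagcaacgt

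The search covered 4 motifs, none of which overlapped another in these windows. TATAA, the core of the TATA box, and CCAAT were in none of the 3 windows, and they occur in 11.8% and 21.7% of the 32851 windows of the same length. CTTTC, a pyrimidine run of the kind found where ribosomal protein and small nucleolar RNA host transcripts start, was in the 2410006H16Rik window from base -4 and occurs in 29.2% of all windows. CTTCC, the complement of the GGAAG that ETS factors bind, was added to the search after these windows had been read. It was in all 3, from base 13 in Rps13, from base -47 in Nop58 and on the other strand from base -95 in 2410006H16Rik, and it occurs in 44.2% of all windows. These matches describe letters and not binding sites.

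Across the family, 31 members had a higher mean in the arrays labelled KO and 16 a lower one, beside 51.1% higher among all named clusters. The median difference (KO minus WT, log2) was 0.27 over the members and 0.005 over the named clusters. One member, Snord14e, passed an adjusted p of 0.05 upward (limma, Benjamini-Hochberg over 30390 clusters), where 0.00658% of named clusters did, and 0 members passed downward, where 0% of named clusters did. At an unadjusted limma p under 0.05 there were 14 members higher, where 6.40% of named clusters were, and 1 lower, where 3.78% were. Both arrays labelled KO lay above both labelled WT for 18 members (21.0% of named clusters) and below them for 3 (17.5%). A difference of at least 2-fold was seen for 9 members upward (0.388% of named clusters) and for 1 downward (0.286%). Without Snord14e, 30 of 46 members were higher and the median was 0.27. Members vary more than the average cluster, and their median standard error was 0.24, against 0.12 over all named clusters.

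**Figure D1:**
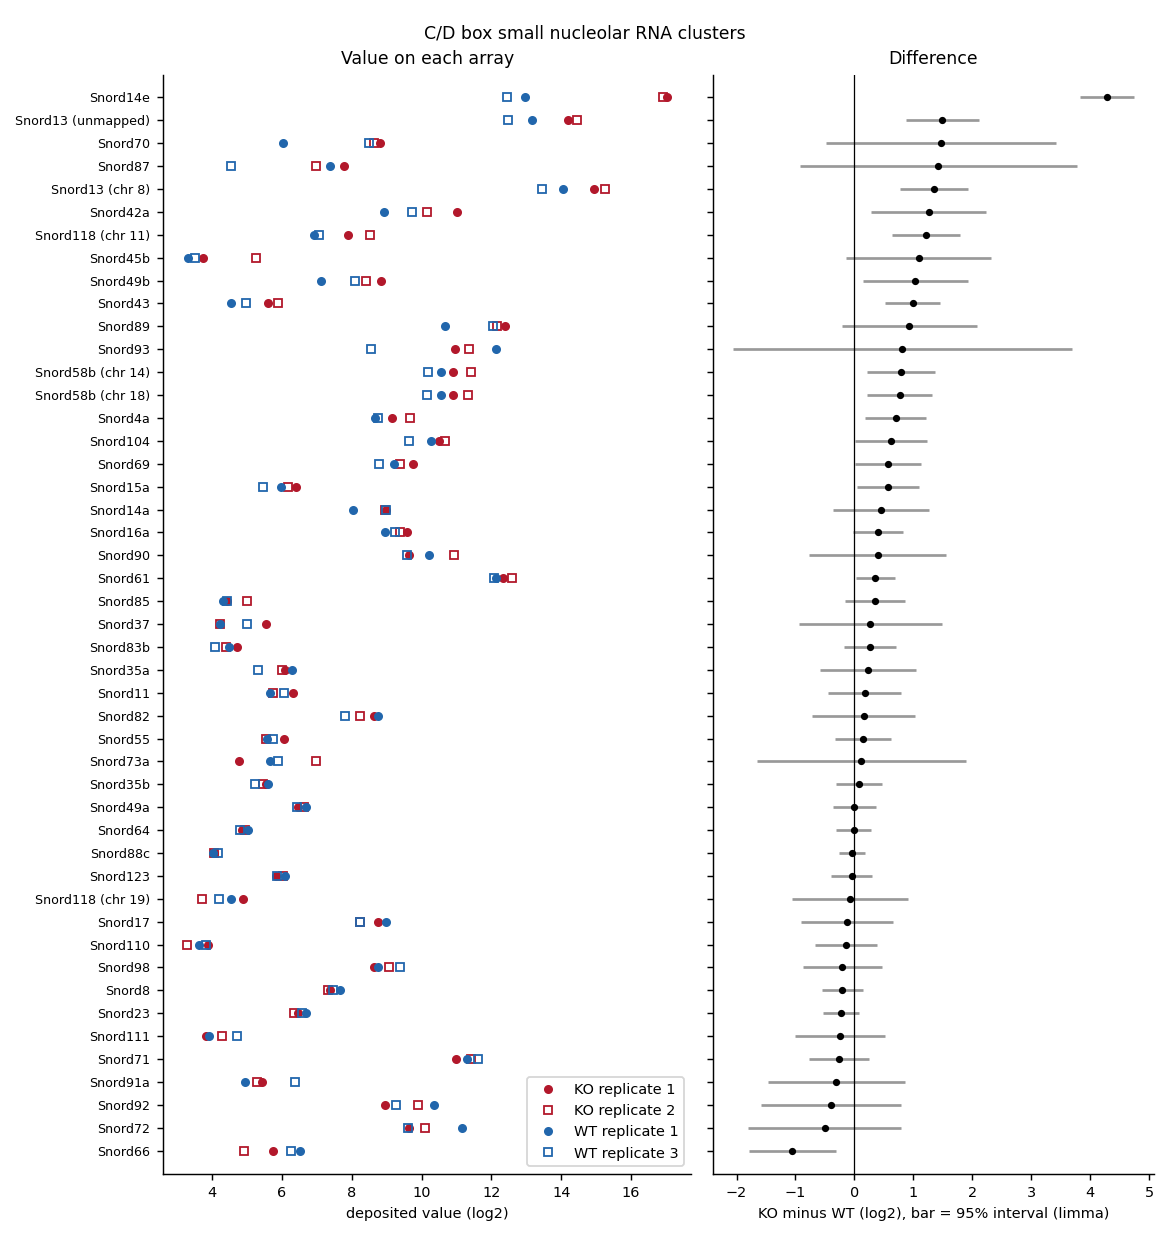
Deposited log2 value of each C/D box cluster on each of the 4 arrays (left; red, arrays labelled KO; blue, arrays labelled WT) and the KO minus WT difference with its 95% limma interval (right), sorted by difference. Snord14e stands at 17.04 and 16.92 in the arrays labelled KO, above 12.96 and 12.44 in the arrays labelled WT, and most other intervals include 0.

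The level of the family as a whole followed the same order. The median over the 47 members was 7.90 and 8.24 in the arrays labelled KO, against 7.11 and 7.45 in the arrays labelled WT, so the groups did not overlap. Members ran from 3.28 to 17.04 in the arrays labelled KO and from 3.30 to 14.05 in the arrays labelled WT, where the whole table runs from 1.82 to 19.38. On all 4 arrays 37 members lay above the array median, 2 lay below it on all 4 and 8 on some. The table carries no detection call, so whether the dim members were measured above background is not known. Values of different clusters come from different probes and give no order of abundance between genes.

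Among the members with the highest mean value, Snord61, which lies in the splicing factor gene Rbmx, had 12.33 and 12.58 in the arrays labelled KO and 12.12 and 12.08 in the arrays labelled WT. Snord71 had 11 and 11.41 in the arrays labelled KO, against 11.29 and 11.63 in the arrays labelled WT. Snord61 did not overlap between groups while Snord71 did. Snord14e, both Snord13 clusters and Snord89 complete the highest 6 and are described below. The 6 with the lowest mean were Snord110, Snord45b, Snord88c, Snord111, one Snord118 cluster and Snord83b. Snord110, in the core protein gene Nop56, had 3.87 and 3.28 in the arrays labelled KO, against 3.62 and 3.82 in the arrays labelled WT. Snord88c had 4.06 and 4.05 in the arrays labelled KO, against 4.03 and 4.17 in the arrays labelled WT, and Snord111 had 3.82 and 4.29 in those labelled KO, against 3.90 and 4.71 in those labelled WT. All 3 overlapped between groups, close to or under the level of the median cluster.

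The upward balance was larger among the brighter members. Of the 22 members with a mean of at least 8, a limit chosen after the values were seen, 17 were higher, with a median difference of 0.60. Among the 7078 named clusters with such a mean, 62.2% were higher and the median was 0.08. The difference showed little relation to annotated length, which runs from 28 to 221 nucleotides with a median of 68 (Spearman's rho of -0.01 over 44 genes, as a description).

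Snord14e rose in the arrays labelled KO. It is a copy of U14, which pairs with 18S ribosomal RNA and is needed for its processing in yeast. Snord14e had 17.04 and 16.92 in the arrays labelled KO, against 12.96 and 12.44 in the arrays labelled WT. The means were 16.98 ± 0.08 and 12.70 ± 0.37 (SD, n = 2 each), and the gap between groups was many times the gap within either. The difference was 4.28 (SE 0.18, 95% interval 3.82 to 4.74), 19.43-fold with an interval of 14.14 to 26.69, and its limma adjusted p was 0.0449. The call did not hold when any 1 array was left out, where limma adjusted p was 0.541 to 0.80, although the difference stayed within 4.02 to 4.54. Those fits leave 1 group with a single array, which is assumed to vary like the other group, and no named cluster of any kind passed in them, so they say little about Snord14e in particular. The call was also lost with quantile normalization (limma adjusted p 0.111), in a fit with no intensity trend (0.0857) and under robust settings (0.0589). No named cluster of any kind passed in those fits either, where 2 passed in the reported one.

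RefSeq places the Snord14e gene on chromosome 9 inside Hspa8, the gene of a constitutive heat shock chaperone, but the identifier of the measured cluster names no chromosome. A second cluster carries Snord14e together with Hspa8, Snord14c and Snord14d and is no member by the rule. That cluster had 15.03 and 14.97 in the arrays labelled KO, against 14.62 and 14.62 in the arrays labelled WT. Its difference was 0.38, in the same direction and far smaller. Of the 163 named clusters with no chromosome in their identifier, Snord14e among them, 105 were higher, with a median difference of 0.11.

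Snord14a, the U14 copy inside the ribosomal protein gene Rps13, had 8.98 and 8.94 in the arrays labelled KO, against 8.03 and 8.98 in the arrays labelled WT. One array labelled WT lay at the level of both labelled KO and the other lower, so the groups overlapped. The difference was 0.46 (SE 0.32) with a limma adjusted p of 0.717. The differences of Snord14e and Snord14a were 3.83 apart, and an exact permutation test of that gap over the 4 arrays gave a two-sided p of 0.333, the smallest that 2 arrays against 2 allow.

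The clusters whose pattern over the 4 arrays was most like that of Snord14e were found among 204 named clusters with a difference of at least 2-fold in size. They were Gm25388, Jchain, which encodes the joining chain of secreted antibodies, Ighg2b, Ighv1-64 and Ighv1-55, which belong to the immunoglobulin heavy chain locus. Pearson's r was 0.993 to 0.996 over 4 points, and any cluster that separates the groups cleanly scores high on this measure. Jchain had 7.66 and 7.49 in the arrays labelled KO, against 6.62 and 6.47 in the arrays labelled WT. The plasma cell markers, among them Jchain itself, were mostly higher. Of 9 markers, 8 were higher, beside 51.1% of named clusters, and 3 lay above without overlap, beside 21.0%. Their mean level was 6.65 and 6.62 in the arrays labelled KO, against 6.30 and 6.42 in the arrays labelled WT. On all arrays 2 lay below the array median. Jchain had the widest difference of the list, 1.03, and the median of the list was 0.205. The part of these markers in the result was not tested. Of the 9 measured B cell markers 3 were higher and 5 lay below the array median on all arrays, and of 11 myeloid markers 2 were higher and 6 lay below it. NK cell markers were higher for 3 of 5, and 2 lay below the array median on all arrays. Their mean levels were 6.38 and 6.78 in the arrays labelled KO, against 6.02 and 6.26 in the arrays labelled WT. Nkg7 differed by 1.16 and Eomes by 1.075, while Ncr1 differed by 0.13, Klrk1 by -0.05 and Klrb1c by -0.125. Of the general T cell markers 5 of 7 were higher, of the CD8 markers 1 of 2 and of the erythroid markers 1 of 2. Without overlap, 5 general T cell markers, 3 NK cell markers and 1 myeloid marker lay above, beside 21.0% of named clusters. Below without overlap lay 4 myeloid markers, 1 general T cell, 1 B cell and 1 CD8 marker, beside 17.5%.

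Snord13, or U13, is known in human cells to assist the acetylation of 18S ribosomal RNA. Its 2 clusters share 1 gene and are not independent. One, with no chromosome in its identifier, had 14.18 and 14.44 in the arrays labelled KO, against 13.16 and 12.47 in the arrays labelled WT. The other, on chromosome 8, had 14.94 and 15.25 in the arrays labelled KO, against 14.05 and 13.44 in the arrays labelled WT. The groups did not overlap on either cluster. The differences were 1.495 (SE 0.24, limma adjusted p 0.275) and 1.35 (SE 0.23, limma adjusted p 0.280), so neither passed.

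Snord118, or U8, is known from frog oocytes to be needed for the maturation of 5.8S and 28S ribosomal RNA, and mutations of its human gene cause a leukoencephalopathy. Its 2 clusters share 1 gene. The one on chromosome 11, where RefSeq has the gene, had 7.90 and 8.52 in the arrays labelled KO, against 6.93 and 7.06 in the arrays labelled WT. The one whose identifier names chromosome 19 had 4.88 and 3.71 in the arrays labelled KO, against 4.55 and 4.19 in the arrays labelled WT. The chromosome 11 cluster separated the groups with a difference of 1.22 (SE 0.23, limma adjusted p 0.288). The chromosome 19 cluster, close to the array median, overlapped with a difference of -0.08 (SE 0.39). The gap between these differences was 1.29 (exact permutation p of 0.333, two-sided), and it was 0.395 without KO replicate 2 and 2.185 without KO replicate 1.

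U3, the C/D box RNA of the small subunit processome, carries other symbols on this array and is no member by the rule. Its genes Rnu3a and Rnu3b1 to Rnu3b4 had differences of 0.17 to 0.91 over 10 clusters, several of which share their values. One Rnu3a cluster had 9.29 and 9.5 in the arrays labelled KO, against 8.92 and 8.54 in the arrays labelled WT (limma adjusted p 0.374). Snord22 lay on a cluster shared with its host Snhg1, which had 8.83 and 8.69 in the arrays labelled KO, against 8.80 and 8.43 in the arrays labelled WT.

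Next by p among the members that separated the groups upward were Snord43, Snord58b, Snord4a and Snord42a, which all lie in ribosomal protein genes. Snord43, which in human cells guides methylation of 18S ribosomal RNA, had 5.61 and 5.90 in the arrays labelled KO, against 4.55 and 4.98 in the arrays labelled WT (difference 0.99, SE 0.18, limma adjusted p 0.288). Its WT values lay close to the array medians, 4.72 in replicate 1 and 4.67 in replicate 3. Snord58b had 10.90 and 11.34 in the arrays labelled KO, against 10.55 and 10.15 in the arrays labelled WT, on the cluster of chromosome 18. Its second cluster differed from the first by at most 0.07 on any array. Both lay clear of the WT range, with differences of 0.77 and 0.79.

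Snord4a and Snord42a lie in the ribosomal protein gene Rpl23a. Snord4a had 9.15 and 9.67 in the arrays labelled KO, against 8.68 and 8.74 in the arrays labelled WT (difference 0.70, SE 0.20). Snord42a had 11.01 and 10.15 in the arrays labelled KO, against 8.92 and 9.72 in the arrays labelled WT (difference 1.26, SE 0.38). Both separated the groups, and limma adjusted p was 0.386 for Snord4a and 0.399 for Snord42a. The other members with an unadjusted limma p under 0.05 upward were Snord49b, Snord61, Snord15a, Snord69 and Snord104, with differences of 0.36 to 1.04 and adjusted p of 0.430 to 0.482. Snord16a (0.40), Snord45b (1.09), Snord89 (0.94) and Snord70 (1.47) separated the groups as well, at an unadjusted limma p above 0.05. Without WT replicate 1 the difference was 0.245 for Snord89 and 0.25 for Snord70, and for Snord45b it was 0.33 without KO replicate 2 and 1.85 without KO replicate 1.

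Downward, 3 members separated the groups and none passed. Snord66, which lies in the translation initiation factor gene Eif4g1, had 5.75 and 4.92 in the arrays labelled KO, against 6.53 and 6.25 in the arrays labelled WT. Its difference was -1.06 (SE 0.29, limma adjusted p 0.374). Snord23 had 6.47 and 6.34 in the arrays labelled KO, against 6.69 and 6.57 in the arrays labelled WT (difference -0.23, SE 0.12). Snord8 had 7.39 and 7.31 in the arrays labelled KO, against 7.66 and 7.45 in the arrays labelled WT (difference -0.21, SE 0.14). For Snord23 and Snord8 the step between groups was of the order of the gap between replicate arrays.

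The spread between replicate arrays was wide for many members. The median gap between the 2 arrays of a group was 0.41 for the members in the arrays labelled KO and 0.43 in the arrays labelled WT, against 0.12 and 0.13 over all named clusters. A gap of over 1 was found for 5 members between the arrays labelled KO and for 7 between the arrays labelled WT. Snord93 had 10.96 and 11.36 in the arrays labelled KO, against 12.14 and 8.55 in the arrays labelled WT, which lay above and below both others. Snord87, which lies in the noncoding gene Snhg6 and in Mcmdc2, had 7.78 and 6.98 in the arrays labelled KO, against 7.38 and 4.53 in the arrays labelled WT. Snord72, in Rpl37, had 9.65 and 10.11 in the arrays labelled KO, against 11.15 and 9.62 in the arrays labelled WT. In all 3 the groups overlapped. Without WT replicate 3 the difference of Snord87 was 0, against 1.43 on all arrays.

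Neither array labelled WT was the low one throughout. Replicate 1 was above replicate 3 for 26 members and below it for 21, and KO replicate 1 was above KO replicate 2 for 25 and below it for 22. The widest gaps between the arrays labelled KO were those of Snord73a (4.78 and 6.99), Snord45b (3.74 and 5.26), Snord37 (5.54 and 4.24) and Snord90 (9.65 and 10.92). In all, 16 of the 47 members had a difference larger than the wider of their 2 replicate gaps, and Snord14e exceeded it by the most. These 16 are among the members whose groups did not overlap. The share of all named clusters with such a difference was not computed, so the count has no background beside it.

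**Figure D2:**
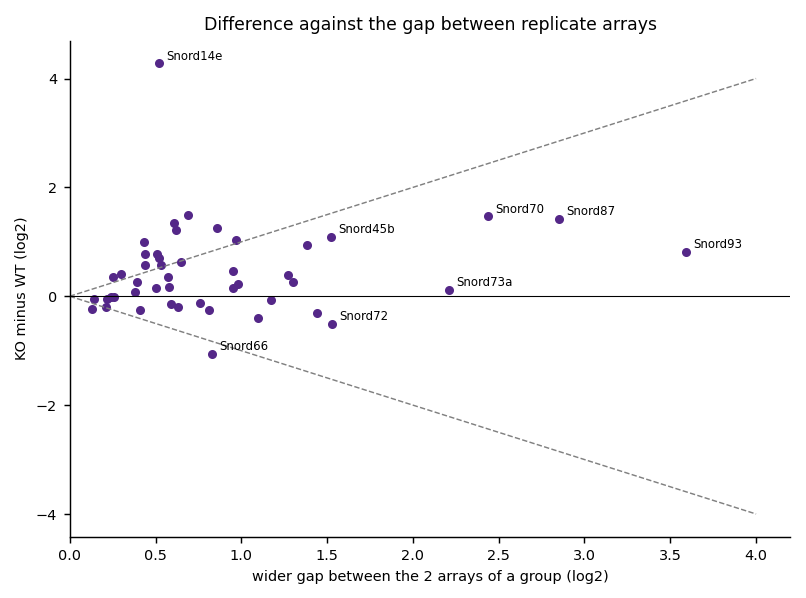
KO minus WT difference (log2) of each of the 47 members against the wider of the 2 gaps between replicate arrays of a group (log2). Points outside the dashed lines, 16 of 47, differ by more than that gap, and the share over all named clusters was not computed. Snord93, with a gap of 3.59, has a difference of 0.82.

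Letter families are genes whose symbols share a number and differ in the letter, and 3 of them had more than 1 letter among the members. In the Snord49 family, both in 2410006H16Rik, Snord49b had 8.84 and 8.42 in the arrays labelled KO, against 7.11 and 8.08 in the arrays labelled WT. Snord49a had 6.46 and 6.63 in the arrays labelled KO, against 6.68 and 6.42 in the arrays labelled WT. Snord49b separated the groups with a difference of 1.04 (SE 0.35) and Snord49a did not, with -0.01 (SE 0.14), although the same gene contains both. The gap between the differences was 1.04 (exact permutation p of 0.333, two-sided), and 0.425 without WT replicate 1 or 1.655 without WT replicate 3. The host shares a cluster with Snord65 and had 12.50 and 12.56 in the arrays labelled KO, against 12.48 and 11.72 in the arrays labelled WT.

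In the Snord35 family, Snord35a, in the ribosomal protein gene Rpl13a, had 6.08 and 6.00 in the arrays labelled KO, against 6.30 and 5.32 in the arrays labelled WT. Snord35b had 5.53 and 5.47 in the arrays labelled KO, against 5.61 and 5.23 in the arrays labelled WT. Both overlapped between groups, with differences of 0.23 (SE 0.32) and 0.08 (SE 0.15). The gap between the differences was 0.15 (exact permutation p of 1.0). The third letter family, Snord14, had the widest gap.

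Members of different numbers also shared a host in Rpl3, Nop58 and Rpl23a. Of the pair in Rpl3, Snord43 differed by 0.99 and Snord83b, with 4.70 and 4.40 in the arrays labelled KO against 4.48 and 4.09 in the arrays labelled WT, by 0.27. Of the pair in Nop58, Snord70 had 8.81 and 8.65 in the arrays labelled KO, against 6.04 and 8.48 in the arrays labelled WT. Its partner Snord11 had 6.32 and 5.74 in the arrays labelled KO, against 5.65 and 6.06 in the arrays labelled WT. Snord70 had 1 low array labelled WT, without which its difference was 0.25, and Snord11 overlapped. The gaps between differences were 0.73 in Rpl3, 1.30 in Nop58 and 0.56 in Rpl23a, with exact permutation p of 0.333, 0.333 and 0.667. With 1 array left out, these gaps ranged from 0.315 to 1.135 in Rpl3, from 0.28 to 2.31 in Nop58 and from -0.13 to 1.25 in Rpl23a. In all, 9 pairs were compared, 3 of the same number, 3 of the same host and 3 of copies of 1 gene. The design cannot bring any of them under 0.333.

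**Figure D3:**
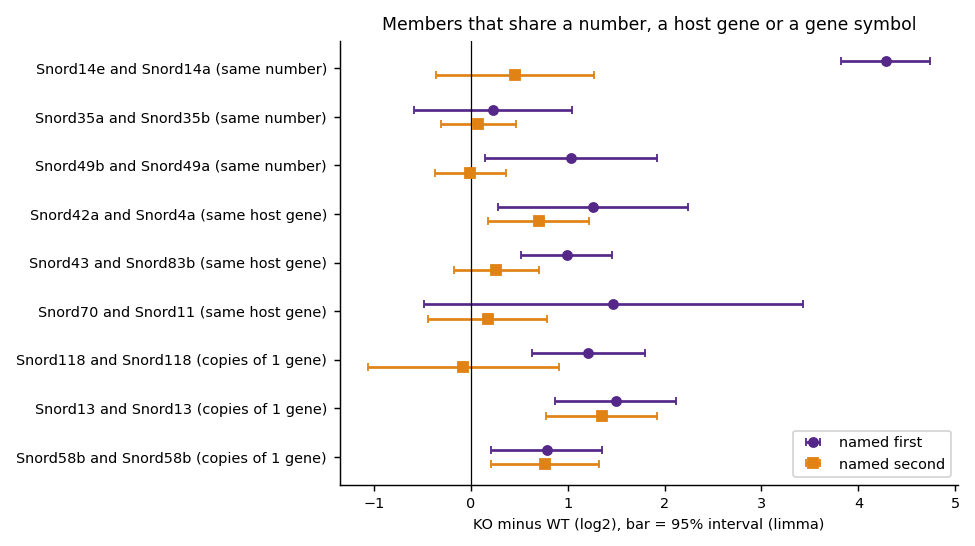
KO minus WT difference (log2) with its 95% limma interval for the 9 pairs of members that share a number, a host gene or a gene symbol; circles, the member named first, squares, the member named second. Snord14e at 4.28 stands apart from Snord14a at 0.46, while both Snord13 clusters and both Snord58b clusters lie close together.

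Most members lie inside other genes in the RefSeq annotation. Of the 44 genes, 35 lie in a protein-coding gene, 13 of these in ribosomal protein genes, 6 only in noncoding genes and 3 in no annotated gene. The 14 clusters in ribosomal protein genes, both Snord58b clusters among them, were higher in 13 cases, with a median difference of 0.43. Clusters of ribosomal protein genes themselves were higher in 41 of 47 cases, with a median of 0.135. Among named clusters 51.1% were higher, or 62.2% of those with a mean of at least 8. All clusters in protein-coding genes were higher in 24 of 36 cases (median 0.25), and those in noncoding genes in 3 of 6 (median 0.31). The 5 clusters of the genes with no containing gene, Snord13, Snord118 and Snord89, were higher in 4 cases with a median of 1.22. Snord89 had 12.40 and 12.17 in the arrays labelled KO, against 10.66 and 12.04 in the arrays labelled WT. These are 3 genes, so the median describes few independent values.

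Host genes, taken as any gene that contains a member on either strand, could be set beside their members in 24 pairs. In these, 23 distinct hosts had a cluster of their own on their chromosome. Snord87, Snord71, Snord91a and Snord8 entered with each gene that contains them. A gene on the other strand would be no true host, and the counts here include any such gene. Of the 23 hosts 13 were higher, with a median difference of 0.03 and a range of -0.34 to 0.54. The member had the sign of its host in 17 pairs and lay further from 0 than its host in 17. Members had a median standard error of 0.24, against 0.12 over all named clusters. Whether members moved further than this wider spread allows was not tested. Pearson's r between the differences was 0.47 and Spearman's rho 0.35 over the 24 pairs, which share the same 4 arrays and partly the same host or member. The ribosomal protein gene Rpl4, host of Snord16a, had 18.33 and 18.30 in the arrays labelled KO, against 18.26 and 18.20 in the arrays labelled WT. Nop58 had 12.25 and 12.23 in the arrays labelled KO, against 11.82 and 11.87 in the arrays labelled WT. The difference was 0.09 for Rpl4 beside 0.40 for Snord16a, and 0.40 for Nop58 beside 1.47 for Snord70, or 0.25 for Snord70 without WT replicate 1.

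**Figure D4:**
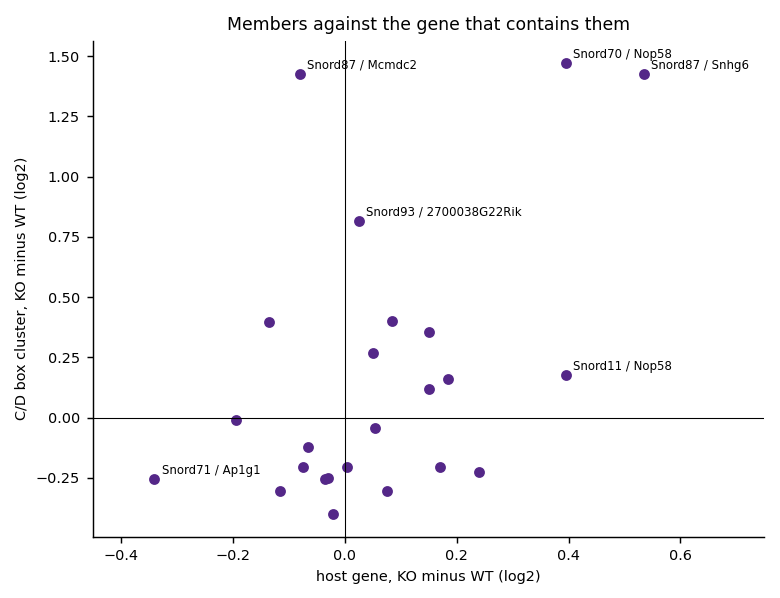
KO minus WT difference (log2) of a C/D box cluster against that of the gene that contains it, for the 24 pairs in which the host has a cluster of its own. Strand was not used to name hosts. Hosts lie between -0.34 and 0.54, while their members reach 1.47 (Snord70).

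A further 25 clusters carry a Snord symbol together with other symbols, mostly of the host, and are no members. They hold 30 Snord symbols and 23 distinct sets of values. Of the 23, 19 were higher in the arrays labelled KO, where 51.1% of named clusters were, or 62.2% of those with a mean of at least 8. Without overlap 14 lay above (21.0% of named clusters) and 1 below (17.5%). The median difference was 0.15. The cluster of Gas5, a noncoding host, with Snord47 had 10.37 and 10.42 in the arrays labelled KO, against 10.11 and 9.31 in the arrays labelled WT. The cluster of Snord53 with the predicted gene Gm22858 had 6.70 and 8.62 in the arrays labelled KO, against 9.07 and 8.97 in the arrays labelled WT. That was the one cluster clear of the WT range downward, with a difference of -1.36, and KO replicate 1 was its low array. Some of these clusters carry a letter-mate of a member together with the host, so their values cannot be assigned to the letter-mate. The differences were 0.04 for Snord15b with Rps3 beside 0.57 for Snord15a, and 0.12 for Snord42b with Rpl23a beside 1.26 for Snord42a. They were 0.34 for Snord45c with Rabggtb beside 1.09 for Snord45b, and -0.03 for Snord88a with 2410002F23Rik beside -0.05 for Snord88c. The cluster of Snord14c and Snord14d was given above with Hspa8.

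Other small noncoding RNAs were also mostly higher in the arrays labelled KO, a comparison chosen after the values were seen. Of the 19 clusters of H/ACA box RNAs, which guide pseudouridine formation, 16 were higher with a median of 0.30. Of the 26 clusters of U RNA genes, which include the spliceosomal RNAs and U3, 22 were higher with a median of 0.57, and they hold 20 distinct sets of values. All 8 clusters of 7SL, 7SK and Y RNA genes were higher, with a median of 0.53, and they hold 6 distinct sets of values. Clusters of 5S RNA genes were higher in 84 of 96 cases, with a median of 0.275 and 39 distinct sets of values. MicroRNA genes did not share the direction, with 236 of 630 higher and a median of -0.05. No test was made of a difference between these classes and the C/D box members.

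**Figure D5:**
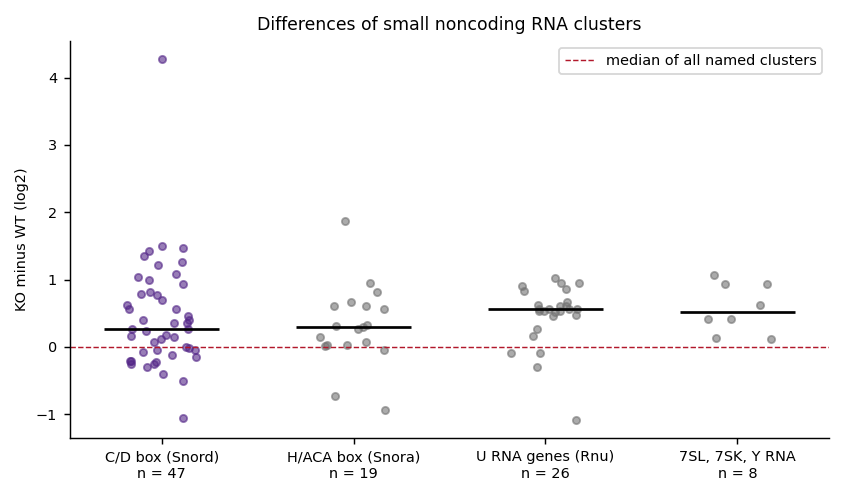
KO minus WT difference (log2) of each cluster in 4 classes of small noncoding RNA; points are clusters, black bars are class medians and the dashed line is the median of all named clusters. The medians are 0.27 for C/D box, 0.30 for H/ACA box, 0.57 for U RNA genes and 0.53 for 7SL, 7SK and Y RNA genes.

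The proteins that build and use C/D box particles were examined from lists. In these, 0 genes of any list passed a limma adjusted p of 0.05, where 0.00658% of named clusters passed upward and 0% downward. With so few passing anywhere, that count says little about these proteins. Of the core proteins, Nop58 and Fbl, the methyltransferase, had clusters of their own. Nop58 differed by 0.40 (SE 0.11, limma adjusted p 0.367). Fbl had 14.56 and 14.37 in the arrays labelled KO, against 14.35 and 14.46 in the arrays labelled WT, a difference of 0.06 with overlapping groups. Nop56 shared a cluster with Snord57 that had 9.67 and 9.51 in the arrays labelled KO, against 9.30 and 9.12 in the arrays labelled WT.

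Of the 9 measured assembly factors 8 were higher, with a median of 0.20. The nucleolar chaperone Nolc1 had 9.20 and 9.10 in the arrays labelled KO, against 8.70 and 8.87 in the arrays labelled WT (difference 0.37, limma adjusted p 0.473). Znhit6 differed by 0.36 and Ruvbl1, an ATPase of the assembly complex, by 0.20. Genes of intron release and trimming were split, with 7 of 14 higher and a median of -0.01. Aqr, a helicase of the spliceosome, had 9.77 and 9.82 in the arrays labelled KO, against 9.99 and 10.30 in the arrays labelled WT, and the exosome subunits Exosc2 and Exosc7 differed by -0.24 and -0.22.

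Of the 6 listed proteins of H/ACA particles and their assembly 5 were higher, with Dkc1, the pseudouridine synthase, at 0.26, Gar1 at 0.28 and Naf1 at 0.18. Of the U3 and small subunit processome proteins 15 of 26 were higher, with a median of 0.05. Wdr46 had 7.70 and 7.61 in the arrays labelled KO, against 7.04 and 7.26 in the arrays labelled WT, and Imp4 and Mphosph10, which bind U3, differed by 0.40 and 0.42. Among the 11 lower ones, Utp20, chosen after its values were seen, had 6.82 and 7.12 in the arrays labelled KO, against 7.24 and 7.41 in the arrays labelled WT. Genes of RNA polymerase I transcription were higher in 9 of 12 cases. Among them the subunit gene Polr1d differed by 0.34, Npm1 by 0.13 and Polr1b by -0.25.

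Of the noncoding host genes 8 were measured on their own cluster and 5 were higher. Snhg5 had 9.79 and 9.70 in the arrays labelled KO, against 8.55 and 8.97 in the arrays labelled WT. Its difference was 0.99 (SE 0.18, limma adjusted p 0.288), the widest of the list. Snhg6 had 7.61 and 7.54 in the arrays labelled KO, against 7.19 and 6.89 in the arrays labelled WT, a difference of 0.54. Snhg14, the host of Snord64 in the imprinted Prader-Willi region, differed by -0.20, and Snord64 by -0.01.

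Members not named above had differences within the range already given, and each overlapped between the groups. Snord82, in the nucleolin gene Ncl, had 8.65 and 8.24 in the arrays labelled KO, against 8.76 and 7.81 in the arrays labelled WT. Snord92, in the processome gene Wdr43, had 8.95 and 9.89 in the arrays labelled KO, against 10.37 and 9.27 in the arrays labelled WT. Snord17, the longest member, had 8.74 and 8.24 in the arrays labelled KO, against 8.99 and 8.23 in the arrays labelled WT. The differences were 0.16 for Snord82, -0.40 for Snord92 and -0.12 for Snord17, all within the gap between replicate arrays. Snord85 (0.35), Snord55 (0.15), Snord98 (-0.21), Snord91a (-0.31) and Snord123 (-0.05) complete the family.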

How the data were processed

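The values are those the authors deposited, on the log2 scale, in 1 table of 65528 clusters by 4 arrays. RMA and Transcriptome Analysis Console are named in the submitters' processing notes with neither version nor order. Hybridisation and genome build are not given in the sources used, and the extract field describes real-time PCR. Clusters were named through the platform annotation: 30390 had 1 symbol, 2127 several, and 33011 were not listed. Differences were KO minus WT, tested with limma 3.58.1 in R 4.3.3 (intensity trend, two-sided, Benjamini-Hochberg over the named clusters, prior degrees of freedom 3.18). Intervals are 95% intervals, and no filter was applied. The procedure was tested on simulated data. The number of arrays limits the precision. Hosts are RefSeq genes that contain a member; that table gives no strand, so strand was not used. The 11 alternatives covered scaling, normalization, dim clusters, clusters tested, variance model and leaving out each array. Named members are those past the threshold, those with the smallest p without overlap, those of highest and lowest mean, of ribosomal RNA processing and of widest replicate gap, and letter families. Members and lists were chosen with earlier results of these data known.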

Additional observations from a re-analysis of the deposited data

How the results depend on the processing

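Over 11 alternatives, the median difference of the members was 0.24 to 0.40, and the share that was higher ran from 30 of 47 (without WT replicate 3) to 35 of 47 (without WT replicate 1). The number of members called was 1 in the reported test and 0 with quantile normalization, with no intensity trend, under robust settings and without any 1 of the 4 arrays. In the first 3 no named cluster of any kind passed, where 2 passed in the reported test, and the cause was not tested. Fewer arrays were fitted in the others. Of 364 alternative values of 34 named clusters, 343 kept their sign, 20 turned and 1 was 0 (Snord87 without WT replicate 3). Snord49a turned to 0.02 after median-centring and 0.036 with quantile normalization. The other turns came from leaving out 1 array, where the difference ranged from -0.135 to 0.125 for Snord49a, from -0.115 to 0.465 for Snord11, from -0.38 to 0.92 for Snord37, from -0.66 to 0.51 for Snord118 of chromosome 19, from -0.44 to 0.15 for Snord110, from -0.24 to 1.03 for Snord90, from -0.985 to 1.225 for Snord73a, from -0.02 to 0.93 for Snord14a, from -1.27 to 0.26 for Snord72, from -0.26 to 0.72 for Snord35a, from -0.11 to 0.27 for Snord35b, from -0.115 to 0.025 for Snord88c, from -0.655 to 0.155 for Snord111 and from -0.98 to 2.61 for Snord93. The gap between the Snord35 differences ranged from -0.15 to 0.45 in the same way. No paired analysis was possible because the groups share only replicate number 1. With no detection call, the signal of dim members over background is not known.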
